A study of Mus musculus with 6 samples.

Results

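The citric acid cycle genes and the genes that bring pyruvate into it were followed here in RNA that came down with the RNA-binding protein IGF2BP1. The 34 genes were chosen by name, by a rule that uses no measured value, though with earlier results of these data known. They cover the mitochondrial pyruvate carrier, the pyruvate dehydrogenase complex with its kinases and a phosphatase, the enzymes of the cycle, and the reactions that feed or drain it. All 34 are among the 22564 genes of the deposited table, on 16 chromosomes, and all 34 passed the filter on low counts.

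Pyruvate made by glycolysis crosses the inner mitochondrial membrane through a carrier of paired subunits. The pyruvate dehydrogenase complex turns it into acetyl-CoA, and the cycle oxidises acetyl-CoA and passes the electrons on to the respiratory chain. Phosphorylation by pyruvate dehydrogenase kinases switches the complex off, and a phosphatase switches it on again. IGF2BP1 binds messenger RNAs in the cytoplasm and is known for effects on their stability, transport and translation.

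RNA immunoprecipitation sequencing (RIP-seq) reads the RNA that stays attached to a protein when an antibody captures that protein from lysed cells. The 6 libraries form 3 groups of 2, namely RNA precipitated with an antibody to IGF2BP1 (IGF2BP1 RIP), RNA precipitated with a control immunoglobulin (IgG RIP), and RNA that was not precipitated (input). All 3 groups came from cultured mouse germ stem cells kept in a medium with GDNF and FGF2, each at 10 ng/ml, and the labels name total RNA and 150 bp paired-end reads. The labels name no genotype, strain, age or further treatment, nor any separate cultures behind the libraries of a group, so each p-value reflects no more than how far these libraries spread.

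The IGF2BP1 RIP libraries held 2793425 and 2836942 fragments on genes, the IgG RIP libraries 2558673 and 2723449, and the input libraries 1639251 and 1693165. Levels are given as CPM, the fragments of a gene over the library total after TMM scaling, multiplied by 1000000. They are shares of a library, so a gene can differ because other genes took more or less of it. The IgG RIP libraries differed most from each other, with a biological coefficient of variation of 49.7%, against 7.8% in IGF2BP1 RIP and 6.8% in input. Of 15 germ cell markers, 15 were measured, and their summed level was 3779 and 3877 CPM in IGF2BP1 RIP, against 3432 and 3329 CPM in IgG RIP, while input had 3739 and 3613 CPM. Fibroblast markers (14 of 14 measured) summed to 4286 to 4885 CPM and macrophage markers (11 of 12 measured) to 3318 to 3904 CPM over the 6 libraries. Most of the macrophage sum was Lyz2, at 2452 to 3137 CPM, with Mrc1 at 228 to 367 CPM and Cd68 at 157 to 339 CPM. Csf1r had 0 CPM in IgG RIP replicate 1 and 46.0 CPM in replicate 2. RNA with markers of both kinds was thus present in every group, though not every marker in every library. Sertoli markers summed to 40.3 to 65.8 CPM. Among them Sox9 had 29.6 to 48.5 CPM, Clu 3.55 to 10.6 CPM and Wt1 0.39 to 7.44 CPM. Gata4, Gdnf and Rhox5 had up to 4.11 CPM, and Amh and Cldn11 were at 0 in all libraries. Leydig markers summed to 1.8 to 5.8 CPM, with Star at 1.185 to 5.04 CPM and Cyp17a1, Cyp11a1 and Lhcgr at 0. The part of these other cells in the values below was not tested. The transcript of Igf2bp1 itself did not pass the test in any comparison, at a log2 difference of 0.05 ± 0.10 (SE) for IGF2BP1 RIP over IgG RIP, with an adjusted p of 0.787.

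Together the 34 genes took 0.348% and 0.335% of all fragments with the IGF2BP1 antibody, against 0.288% and 0.271% with IgG and 0.311% and 0.317% without precipitation. The groups did not overlap in this share, which was highest in IGF2BP1 RIP and lowest in IgG RIP. Mdh2, the mitochondrial malate dehydrogenase that regenerates oxaloacetate, alone made up 22.7% and 21% of the genes' summed CPM in IGF2BP1 RIP, against 18.7% and 20.2% in IgG RIP, while in input it made up 19.3% and 18.9%. Without Mdh2 the summed level was 2670 and 2650 CPM in IGF2BP1 RIP, against 2328 and 2204 CPM in IgG RIP, while input had 2555 and 2583 CPM, so the order of the groups was the same. Depth differed between the genes. At least 50 fragments were counted in every library for 26 of them, while Mpc1, Pdk2, Idh2, Pck2 and Idh3g had under 25 in at least 1 library.

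Levels of different genes can be set side by side only per transcript length, for which the authors' FPKM were rescaled to sum to 1000000 in each library. On that scale Mdh2 came first in every group, at 1147 ± 153 in IGF2BP1 RIP, 820 ± 12.5 in IgG RIP and 861 ± 5.16 in input (SD, n = 2 each). Mpc2, a subunit of the pyruvate carrier, was the next in input at 407 ± 14.2, but stood at 178 ± 3.05 in IGF2BP1 RIP and 132 ± 30.7 in IgG RIP, ranks 3 and 6. Sdha, the flavoprotein subunit of succinate dehydrogenase, followed in input at 148 ± 28.2 and was the next after Mdh2 in both precipitates, at 183 ± 17.2 in IGF2BP1 RIP and 221 ± 19.0 in IgG RIP. Next in input were Cs at 122 ± 7.86, Acly at 111 ± 0.16 and Pdk1 at 110 ± 12.6. Sdha and Cs, and likewise Acly and Pdk1, differed by less than the larger SD of the pair, while Cs and Acly differed by more. Pck2, the mitochondrial phosphoenolpyruvate carboxykinase, came last in all groups, at 3.997 ± 0.80 in IGF2BP1 RIP, 2.35 ± 3.32 in IgG RIP and 2.40 ± 1.49 in input. Idh2, the mitochondrial NADP-dependent isocitrate dehydrogenase, stood at 9.24 ± 0.02 in IGF2BP1 RIP, 4.69 ± 1.63 in IgG RIP and 10.1 ± 2.40 in input.

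**Figure D1:**
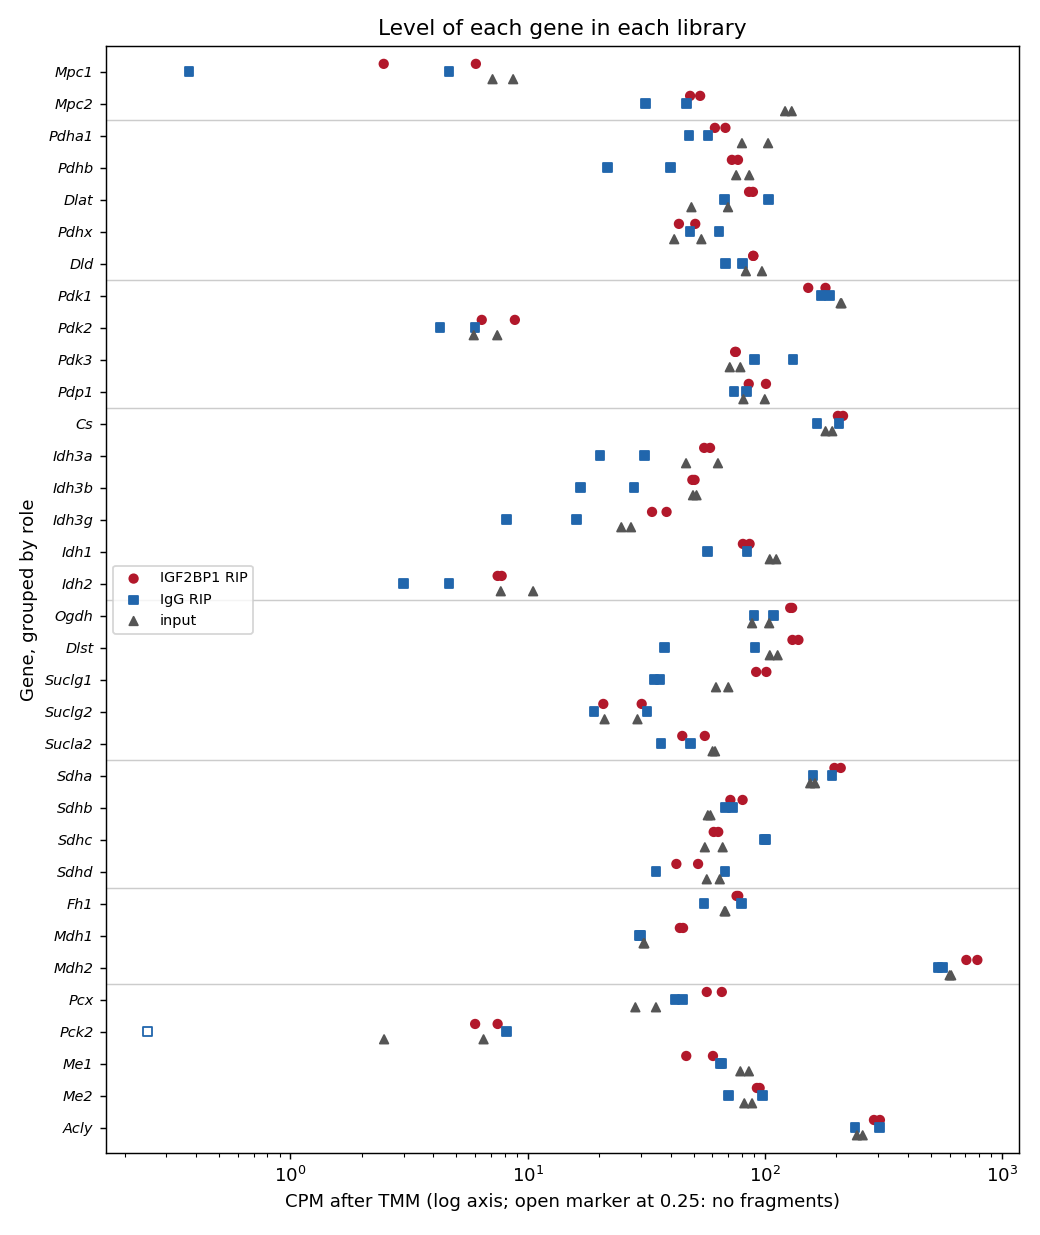
Level in CPM (log axis) of each of the 34 genes in each of the 6 libraries, grouped by role, with a point per library, a colour per group (IGF2BP1 RIP, IgG RIP, input) and an open marker where a library had no fragments. Mdh2 stands far above the rest in every library, between 536.3 and 786 CPM, and Mpc2 has both precipitates (31.4 to 53.3 CPM) below input (121.6 and 129.7 CPM).

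Relative to IgG RIP, 3 of the 34 genes were higher in IGF2BP1 RIP and 0 were lower at an adjusted p under 0.05 by edgeR's quasi-likelihood test with all 3 groups in the fit. All groups share 1 estimate of the spread there, so this count also carries the narrower spread of the input libraries. Of all 12053 genes tested, 3.29% were called higher and 3.78% lower. The 3 genes were Suclg1, Pdhb and Mdh2, each from a different step of the pathway. At an unadjusted p under 0.05, 9 genes were higher and 2 lower, where 12.3% and 13.0% of all genes were. DESeq2 called 6 higher (the same 3 with Idh3a, Idh3g and Dlst) and 0 lower, where it called 2.95% and 3.80% of all genes. The median log2 difference over the 34 genes was 0.25, against -0.01 over all genes tested, and 28 of 34 (82.4%) were above 0, against 49.2% of all genes. In the same comparison the median was 0.29 for the germ cell markers (2 of 15 called higher, 0 lower), -0.10 for the fibroblast markers (0 of 14 higher, 1 lower) and 0.57 for the macrophage markers (2 of 11 higher, 1 lower). Their part in the shift of the 34 genes was not tested.

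Suclg1 (ENSMUSG00000052738, chr6:73248382-73276911, GRCm38 as for all positions given here) encodes the alpha subunit that both succinyl-CoA ligases share. It had 101 and 91.8 CPM in IGF2BP1 RIP, against 36.1 and 34.02 CPM in IgG RIP, while input had 70.1 and 62.2 CPM. No libraries overlapped between groups, with IGF2BP1 RIP highest and IgG RIP lowest. The log2 difference was 1.46 ± 0.18 (SE) over IgG RIP, with an adjusted p of 0.0065, and 0.55 ± 0.18 over input, with an adjusted p of 0.131. In the fit without IGF2BP1 RIP replicate 1 the difference over IgG RIP was 1.38 with an adjusted p of 0.131, and without replicate 2 it was 1.53 with an adjusted p of 0.101. The beta subunits that pair with Suclg1 did not pass. Suclg2, the GTP-forming partner, had a log2 difference of 0.01 ± 0.37 over IgG RIP, and Sucla2, the ATP-forming partner, 0.24 ± 0.23.

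Pdhb (ENSMUSG00000021748, chr14:8165991-8172992), the beta subunit of the first enzyme of the pyruvate dehydrogenase complex, had 72.6 and 77.0 CPM in IGF2BP1 RIP, against 40.0 and 21.7 CPM in IgG RIP, while input had 75.7 and 85.9 CPM. IGF2BP1 RIP was above both IgG RIP libraries, which differed 1.84-fold from each other, and overlapped input. The log2 difference over IgG RIP was 1.28 ± 0.29, with an adjusted p of 0.0427, and over input -0.11 ± 0.28, with an adjusted p of 0.881. Without input in the fit the adjusted p over IgG RIP was 0.140, and without IGF2BP1 RIP replicate 1 or replicate 2 it was 0.270 or 0.306. In the fit without IgG RIP replicate 1 or replicate 2 the log2 difference was 1.78 or 0.90. Its partner Pdha1, the alpha subunit of the same enzyme, did not pass, at 0.30 ± 0.21 over IgG RIP. Dlat, Pdhx and Dld, which carry the later steps of the complex or hold them together, had log2 differences of 0.03, -0.25 and 0.26.

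Mdh2 (ENSMUSG00000019179, chr5:135778480-135790398) had 786 and 706 CPM in IGF2BP1 RIP, against 536 and 560 CPM in IgG RIP, while input had 610 and 601 CPM. Both IGF2BP1 RIP libraries lay above all others. The log2 difference was small, 0.45 ± 0.08 over IgG RIP, with an adjusted p of 0.0247, and 0.30 ± 0.08 over input, with an adjusted p of 0.0838. Without input in the fit the adjusted p over IgG RIP was 0.106, and without IGF2BP1 RIP replicate 1 or replicate 2 the difference was 0.36 or 0.52, with adjusted p-values of 0.257 and 0.128. The cytosolic malate dehydrogenase Mdh1 had 45.2 and 43.8 CPM in IGF2BP1 RIP, against 29.9 and 29.5 CPM in IgG RIP, while input had 31.0 and 30.8 CPM. Its IGF2BP1 RIP libraries also lay above all others in CPM, but the difference over IgG RIP, 0.58 ± 0.22, did not pass at an adjusted p of 0.158. Per length, on the rescaled FPKM, Mdh1 stood at 77.9 ± 3.88 in IGF2BP1 RIP, against 84.8 ± 9.95 with IgG (SD, n = 2 each), and centred FPKM gave a log2 difference of -0.04. Mdh1 shares its annotated span with Wdpcp, so the assignment of its fragments is uncertain.

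The NAD-dependent isocitrate dehydrogenase, the cycle's own enzyme for this step, lay close to the threshold with all its subunits. These 3 genes were picked out after their values were seen, apart from Idh3b, which passed in another comparison. Idh3a, the catalytic subunit, had 58.7 and 55.4 CPM in IGF2BP1 RIP, against 31.0 and 20.2 CPM in IgG RIP, while input had 46.5 and 63.4 CPM. Idh3b (ENSMUSG00000027406, chr2:130274430-130285018), a regulatory subunit that shares its span with Nop56, had 50.5 and 49.4 CPM in IGF2BP1 RIP, against 16.7 and 28.0 CPM in IgG RIP, while input had 51.5 and 49.8 CPM. Idh3g, the other regulatory subunit, had 33.4 and 38.5 CPM in IGF2BP1 RIP, against 8.15 and 16.1 CPM in IgG RIP, while input had 24.8 and 27.3 CPM. In each the IgG RIP libraries were the lowest of all 6, and only in Idh3g were the IGF2BP1 RIP libraries above input as well. The log2 differences over IgG RIP were 1.16 ± 0.28, 1.16 ± 0.28 and 1.56 ± 0.38 in that order, with adjusted p-values of 0.0530, 0.0542 and 0.0525. For Idh3g, centred FPKM gave 0.73 over IgG RIP and -0.31 for IgG RIP over input, against -1.10 for IgG RIP over input in edgeR's fit. The NADP-dependent enzymes were further from it, with Idh1 (cytosolic) at 0.24 ± 0.21 and Idh2 at 0.99 ± 0.62, and Cs, citrate synthase, stood at 0.17 ± 0.13. The median over Cs and the 5 isocitrate dehydrogenase genes was 1.07 over IgG RIP, the highest of the 8 role groups. For the same genes the median was 0.02 for IGF2BP1 RIP over input and -1.1 for IgG RIP over input.

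Succinate dehydrogenase, which also serves as complex II of the respiratory chain, was at the other end, with a median log2 difference of -0.01 over its 4 subunits. Sdhc (ENSMUSG00000058076, chr1:171127165-171150603), one of the membrane anchors, had 60.8 and 63.6 CPM in IGF2BP1 RIP, against 99.7 and 101 CPM in IgG RIP, while input had 55.8 and 66.3 CPM. IgG RIP was above all other libraries, and IGF2BP1 RIP lay within the input range. The log2 difference of -0.69 ± 0.17 for IGF2BP1 RIP over IgG RIP had an adjusted p of 0.0542. The iron-sulfur subunit Sdhb, at 0.11 ± 0.17, the flavoprotein Sdha, at 0.21 ± 0.12, and the other anchor Sdhd, at -0.12 ± 0.32, did not pass.

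Among the regulators of the pyruvate dehydrogenase complex, Pdk1, the kinase with the highest CPM, had 180 and 152 CPM in IGF2BP1 RIP, against 173 and 187 CPM in IgG RIP, while input had 210 and 209 CPM. Both precipitates lay below input and overlapped each other. None of the 4 regulators passed the test over IgG RIP, with Pdk3 at -0.56 ± 0.21 (adjusted p = 0.145) and the phosphatase Pdp1 at 0.24 ± 0.18. Among the reactions that feed or drain the cycle, Acly, the cytosolic enzyme that splits citrate to acetyl-CoA for lipid synthesis, had 305 and 288 CPM in IGF2BP1 RIP, against 303 and 240 CPM in IgG RIP, while input had 244 and 258 CPM. Its IGF2BP1 RIP libraries overlapped IgG RIP and lay above input, and the log2 difference over IgG RIP was 0.13 ± 0.13. The E2 subunit of the 2-oxoglutarate dehydrogenase complex, Dlst, showed how far the IgG libraries could part, at 138 and 131 CPM in IGF2BP1 RIP, against 90.8 and 37.8 CPM in IgG RIP, while input had 105 and 113 CPM. Its log2 difference over IgG RIP was 1.07 ± 0.34 (adjusted p = 0.110), and 1.83 or 0.57 without IgG RIP replicate 1 or replicate 2.

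**Figure D2:**
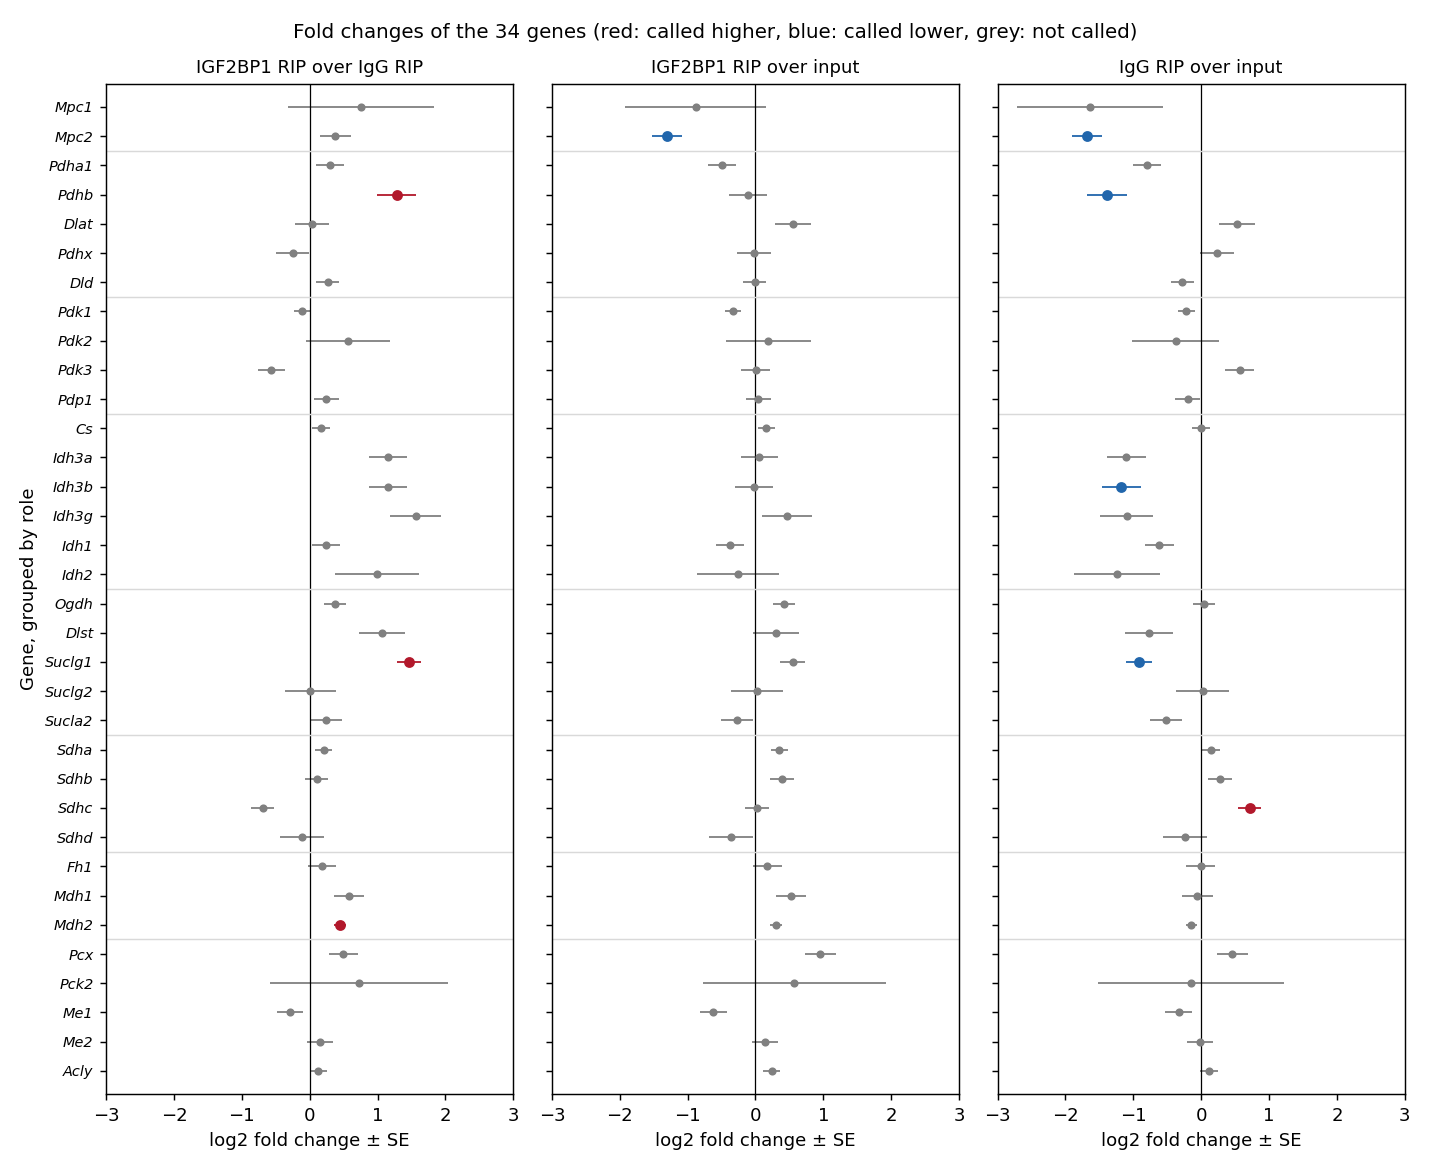
Log2 difference of each of the 34 genes with its standard error in the 3 comparisons (IGF2BP1 RIP over IgG RIP, IGF2BP1 RIP over input, IgG RIP over input), with genes that passed an adjusted p under 0.05 marked. Suclg1, Pdhb and Mdh2 passed over IgG RIP, Mpc2 was lower than input in both precipitates, and Idh3a, Idh3b and Idh3g lie between 1.16 and 1.56 over IgG RIP without passing.

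In all, the libraries of IGF2BP1 RIP lay above both IgG RIP libraries for 17 of the 34 genes (50%) and below both for 3 (8.8%), against 27.4% and 24.7% of all genes tested. Of the 34 genes, 11 differed over 1.5-fold between the IgG RIP libraries, against 1 in IGF2BP1 RIP and 1 in input. As shares these were 32.4%, 2.9% and 2.9% of the 34 genes, against 46.6%, 12.7% and 16.1% of all genes tested. A smaller share of the 34 genes thus differed this far in each group, but all genes were not matched to them by fragment count. The fit without IgG RIP replicate 1 called 16 of the 34 genes higher and 2 lower (Pdk3 and Sdhc), where 24.7% and 22.2% of all genes were called, and without replicate 2 it called 12 and 2 (Sdhc and Sdhd), where 23.2% and 21.3% were. Each of those fits leaves 1 IgG RIP library and takes the spread from the closer IGF2BP1 RIP and input libraries. Their counts, over the 34 genes and over all genes, thus leave out how far the IgG RIP libraries differed. Without input in the fit, Suclg1 alone passed, with an adjusted p of 0.0471, where 0.315% of all genes were called higher and 0.879% lower.

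Relative to input, 0 of the 34 genes were higher in IGF2BP1 RIP and 1 was lower, where 2.21% and 3.77% of all genes were called. That count comes from edgeR's test with all 3 groups in the fit, so it carries the spread of the IgG RIP libraries. At an unadjusted p under 0.05, 5 genes were higher and 4 lower, where 9.67% and 11.1% of all genes were. DESeq2 called 1 higher (Mdh2) and 1 lower (Mpc2), where it called 2.89% and 4.36% of all genes. The median log2 difference was 0.05, against 0.00 over all genes, and 21 of 34 genes were above 0. The IGF2BP1 RIP libraries lay above both input libraries for 14 genes (41.2%) and below both for 8 (23.5%), against 33.5% and 33.4% of all genes tested.

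The gene that was lower was Mpc2 (ENSMUSG00000026568, chr1:165460637-165481214). It had 48.4 and 53.3 CPM in IGF2BP1 RIP, against 31.4 and 46.7 CPM in IgG RIP, while input had 122 and 130 CPM. All precipitate libraries were far below both input libraries. The log2 difference was -1.30 ± 0.22 for IGF2BP1 RIP over input, with an adjusted p of 0.0186, and 0.38 ± 0.23 over IgG RIP, with an adjusted p of 0.349. Leaving out an IGF2BP1 RIP or an input library gave differences of -1.22 to -1.36 over input that no longer passed, with adjusted p-values of 0.177 to 0.254. Its partner in the carrier, Mpc1, was too thinly covered to tell, at 17 and 7 fragments in IGF2BP1 RIP, against 12 and 1 fragments in IgG RIP, while input had 14 and 12 fragments. Its log2 difference over input was -0.88 ± 1.04.

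With the IgG RIP libraries left out of the fit, 10 of the 34 genes were higher in IGF2BP1 RIP than in input and 5 lower, where 16.1% and 17.8% of all genes were called. This fit rests on the libraries that repeated most closely. The largest difference among those higher was in Pcx, pyruvate carboxylase, which makes oxaloacetate from pyruvate and so refills the cycle. It had 65.8 and 56.9 CPM in IGF2BP1 RIP, against 45.0 and 41.9 CPM in IgG RIP, while input had 34.7 and 28.4 CPM. The groups did not overlap, and the order of IGF2BP1 RIP, IgG RIP and input was the same for all libraries. The log2 difference over input was 0.96 ± 0.18 in that fit, with an adjusted p of 0.000195, and 0.96 ± 0.22 in the fit of all groups, with an adjusted p of 0.0535. Pcx shares its span with Lrfn4.

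The other 9 genes that were higher in the fit without IgG RIP came from most steps. In pyruvate oxidation it was Dlat, the acetyl-transferring subunit, at a log2 difference of 0.55 ± 0.15 (adjusted p = 0.00542). In the 2-oxoglutarate and succinyl-CoA steps they were Ogdh, the first enzyme of its complex, at 0.42 ± 0.11 (0.00379), Suclg1 at 0.55 ± 0.13 (0.00191) and Dlst at 0.30 ± 0.10 (0.0229). In succinate dehydrogenase they were Sdha at 0.35 ± 0.09 (adjusted p = 0.00281) and Sdhb at 0.39 ± 0.14 (0.0367). The remaining 3 were Mdh1 at 0.52 ± 0.19 (0.0328), Mdh2 at 0.30 ± 0.07 (0.000949) and Acly at 0.24 ± 0.08 (0.0183). The 5 that were lower were Mpc2 at -1.30 ± 0.12 (2.48e-08), Me1, the cytosolic malic enzyme that yields NADPH, at -0.62 ± 0.15 (0.00229), Pdha1 at -0.50 ± 0.14 (0.00708), Idh1 at -0.37 ± 0.11 (0.0137) and Pdk1 at -0.33 ± 0.09 (0.00621). Me1 had 46.6 and 60.4 CPM in IGF2BP1 RIP, against 66.0 and 64.7 CPM in IgG RIP, while input had 85.6 and 78.8 CPM, with no overlap between groups. Limma with a weight for each group, an alternative chosen after the data were seen, called the same 15 genes in the same directions, where 16.2% and 18.2% of all genes were called. In the fit of all groups, IgG RIP over input stood at 0.52 in Dlat, 0.05 in Ogdh, 0.14 in Sdha, 0.28 in Sdhb and 0.11 in Acly. It stood at -0.91 in Suclg1, -0.76 in Dlst, -0.06 in Mdh1 and -0.14 in Mdh2. Among the lower genes it stood at -1.68 in Mpc2, -0.33 in Me1, -0.80 in Pdha1, -0.61 in Idh1 and -0.22 in Pdk1.

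The control antibody was also compared with input, which shows how the 34 genes behaved in a precipitate without the IGF2BP1 antibody. Relative to input, 1 of the 34 genes was higher in IgG RIP and 4 were lower, where 4.19% and 4.90% of all genes were called. The 4 lower genes were Mpc2, Pdhb, Suclg1 and Idh3b, and the higher one was Sdhc. The median log2 difference over the 34 genes was -0.21, against 0.00 over all genes, and 10 of 34 (29.4%) were above 0, against 49.8% of all genes. The IgG RIP libraries lay below both input libraries for 17 genes (50%) and above both for 4 (11.8%), against 28.5% and 25.3% of all genes tested.

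The log2 differences for IgG RIP over input were -1.68 ± 0.23 in Mpc2 (adjusted p = 0.00867), -1.39 ± 0.29 in Pdhb (0.0301), -0.91 ± 0.19 in Suclg1 (0.0278), -1.17 ± 0.29 in Idh3b (0.0481) and 0.71 ± 0.17 in Sdhc (0.0463). Without IGF2BP1 RIP in the fit, only Mpc2 passed, at -1.67 with an adjusted p of 0.0421, where 0.946% of all genes were called lower and 0.888% higher. Without IGF2BP1 RIP replicate 1 or replicate 2 the calls of Pdhb, Suclg1, Idh3b and Sdhc were lost, with adjusted p-values of 0.101 to 0.146. None of the 5 calls held without input replicate 1 or replicate 2, where Mpc2 had adjusted p-values of 0.140 and 0.148. Pdha1 at -0.80 ± 0.21 and Idh3a at -1.10 ± 0.29 missed the threshold, with adjusted p-values of 0.0569 and 0.0561. Idh3g at -1.10 ± 0.39 and Idh2 at -1.24 ± 0.63 were less precise.

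The 3 comparisons share libraries, so their values stand side by side and do not check one another. Pdhb, Idh3a and Idh3b had log2 differences of 1.28, 1.16 and 1.16 for IGF2BP1 RIP over IgG RIP, -0.11, 0.05 and -0.02 for IGF2BP1 RIP over input, and -1.39, -1.10 and -1.17 for IgG RIP over input. For these genes the IGF2BP1 RIP level was thus close to input and the IgG RIP level was low. In CPM, both IGF2BP1 RIP libraries lay above the 4 others for 8 of the 34 genes (23.5%), against 13.9% of all genes tested. They were Idh3g, Ogdh, Dlst, Suclg1, Sdha, Mdh1, Mdh2 and Pcx. For Ogdh, Sdha and Mdh1 the direction over IgG RIP turned on the authors' length-scaled values, with log2 differences of -0.01, -0.19 and -0.04 on centred FPKM. None of the 34 genes (0) passed the test of IGF2BP1 RIP over both controls with all groups in the fit, where 0.581% of all genes did.

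**Figure D3:**
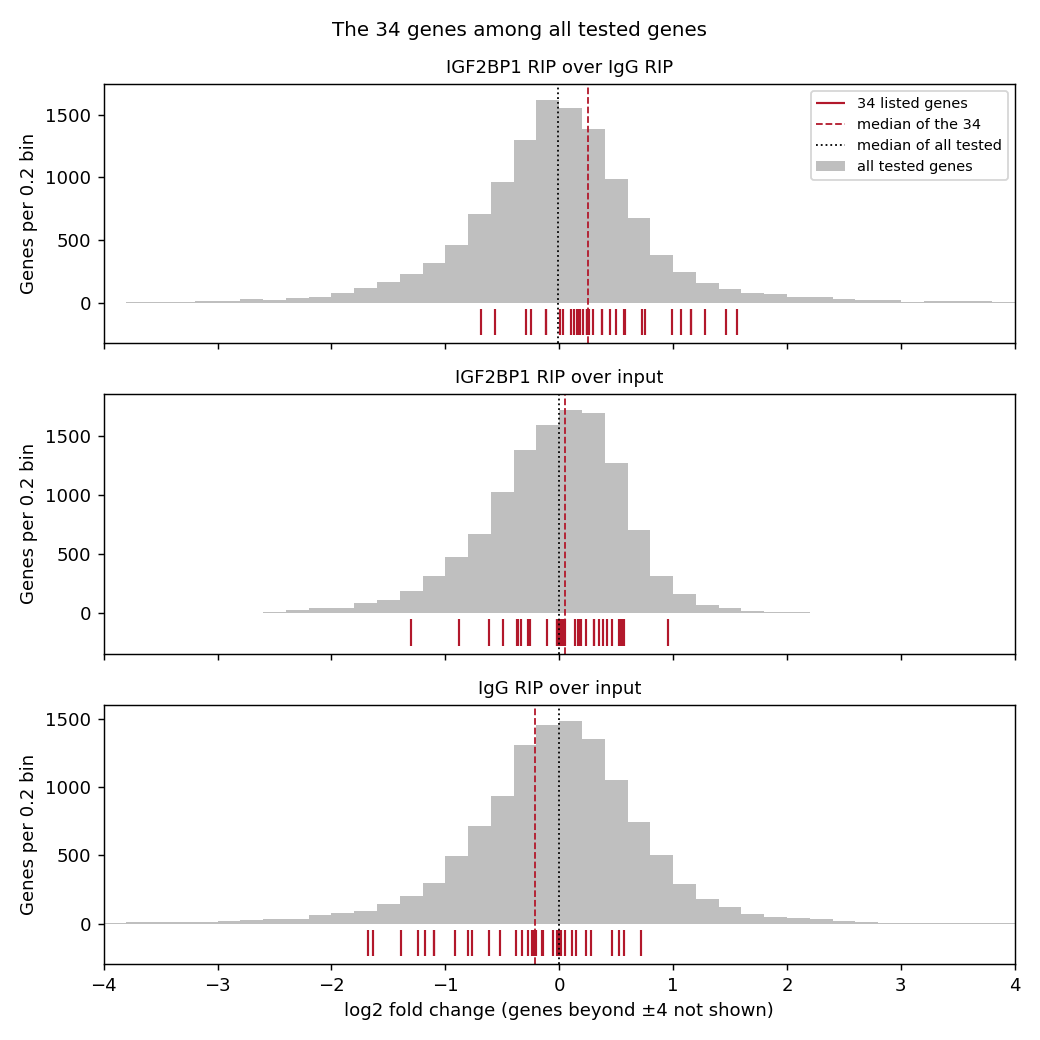
Distribution of the log2 difference over all 12053 genes tested in each of the 3 comparisons, with the 34 genes drawn as ticks and the medians as lines. The median of the 34 genes lies at 0.25 for IGF2BP1 RIP over IgG RIP, 0.05 for IGF2BP1 RIP over input and -0.21 for IgG RIP over input, against medians of -0.01, 0.00 and 0.00 for all genes.

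Transcript length moved with the comparisons against input. A length index was taken as the median over libraries of the ratio of the deposited count to the FPKM of each gene. That ratio can differ between groups, so the index only approximates transcript length. Idh3g had mean CPM of 36.0, 12.1 and 26.0 in IGF2BP1 RIP, IgG RIP and input, but per-length levels of 109, 68.7 and 77.0. In the 1204 genes with the shortest transcripts the median log2 difference was -0.14 for IGF2BP1 RIP over IgG RIP, -0.53 for IGF2BP1 RIP over input and -0.37 for IgG RIP over input. Across genes, which are not independent replicates, Spearman's rho between the index and the difference was -0.27 over the 34 genes and -0.07 over 12043 genes for IGF2BP1 RIP over IgG RIP. It was 0.19 and 0.17 for IGF2BP1 RIP over input, and 0.37 and 0.21 for IgG RIP over input. Mpc2 stood at the 3.2 percentile of length and Idh3g at 3.0, Mdh2, Pdhb, Idh3b and Suclg1 between 19.3 and 22.7, and Pcx at 80.2. The low value of Mpc2 in both precipitates thus belongs to one of the shortest transcripts by this index. Suclg1, Pdhb and Mdh2, which were higher over IgG RIP, are by the index also shorter than most. The part of length in these results was not tested.

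**Figure D4:**
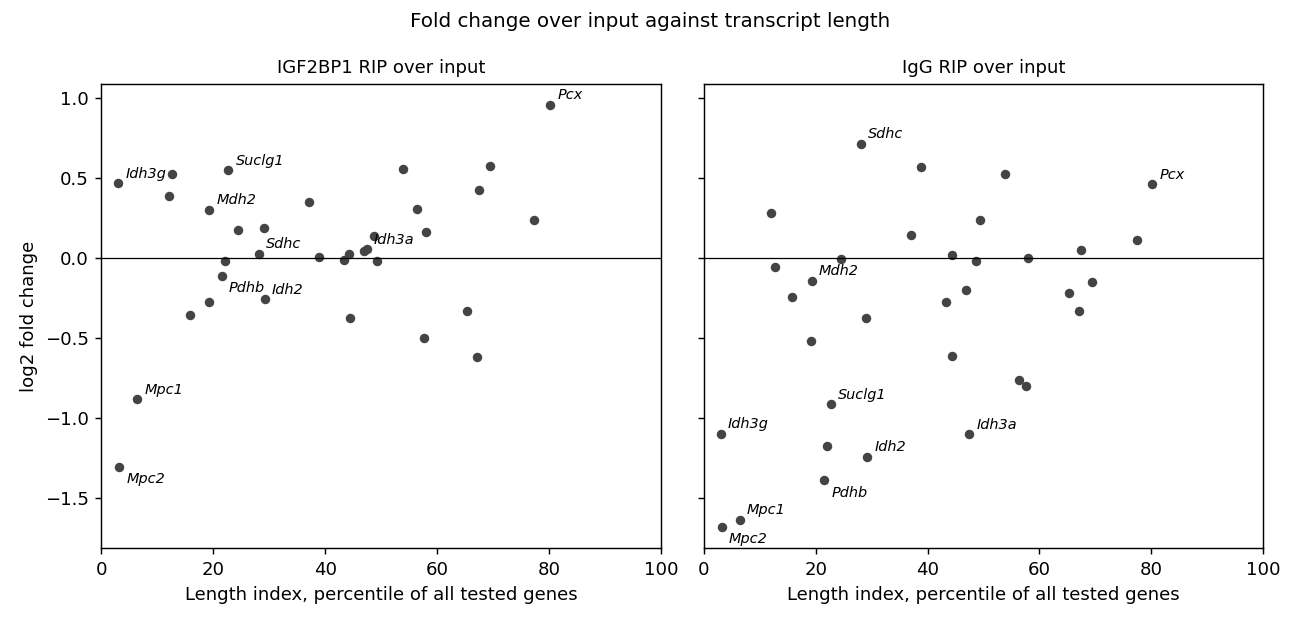
Log2 difference over input, for IGF2BP1 RIP and for IgG RIP, against the length index of each of the 34 genes, given as a percentile of all genes tested. Mpc2, at the 3.2 percentile, is low in both panels, at -1.30 and -1.68, and Pcx, at 80.2, is the highest for IGF2BP1 RIP, at 0.96.

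A list of 40 related genes, covering enzymes, carriers and assembly factors next to the cycle, was read from the same fit. In the table were 36, and 30 were tested. Their median log2 difference was 0.31 for IGF2BP1 RIP over IgG RIP, 0.06 for IGF2BP1 RIP over input and -0.08 for IgG RIP over input. Got2, the mitochondrial aspartate aminotransferase of the malate-aspartate shuttle, had 87.9 and 78.4 CPM in IGF2BP1 RIP, against 29.5 and 31.0 CPM in IgG RIP, while input had 43.4 and 64.6 CPM. Its IGF2BP1 RIP libraries were above all others, and the log2 difference over IgG RIP was 1.46 ± 0.24, with an adjusted p of 0.0173. Over input the difference, 0.62 ± 0.24, did not pass at an adjusted p of 0.188, and IgG RIP over input stood at -0.835. Without input in the fit, the adjusted p over IgG RIP was 0.0536.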

How the data were processed

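RNA from 6 RIP-seq libraries in 3 groups of 2 was compared, as grouped by the sample titles. The authors deposited estimated counts and FPKM per gene, per the file headers. The submitters' processing notes name mm39 and the tools cutadapt 1.9.3 and FastQC. For the aligner and counter, the name is not given in the sources used here. The file's coordinates overlapped GRCm38 for 34 of 34 genes and are printed as GRCm38. Between 92.8% and 94.4% of each library's deposited estimated counts above 0 were whole multiples of a step (tolerance 0.01). The step was divided out and values were rounded to fragments. The FPKM, as deposited by the authors, rise with depth and were rescaled for levels.

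Genes were filtered with filterByExpr and tested with edgeR 4.0.16 in R 4.3.3 (TMM, quasi-likelihood, 3 residual degrees of freedom), with Benjamini-Hochberg adjustment over 12053 genes and a threshold of 0.05. Alternatives used DESeq2 1.42.0, limma 3.58.1, other filters, scalings, the FPKM, 2-group fits, a replicate block and each library left out. The scripts were tested on simulated data with the same spread in all groups, so the wider spread of the IgG RIP libraries was not covered. Same-numbered libraries did not deviate together (correlations of -0.004, 0.003 and 0.009). Values in every library are given for genes that passed in any comparison and for the most abundant gene of each other role group. Others given so were chosen after their values were seen. The genes and lists were chosen with earlier results of these data known. Of the 34 genes, 8 share their annotated span with another gene (Fh1, Idh3b, Mdh1, Me1, Mpc1, Pcx, Pdha1 and Sucla2), so their fragments may be split wrongly. Some results for the related genes are not reported here.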

Additional observations from a re-analysis of the deposited data

How the results depend on the processing

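Genes higher in IGF2BP1 RIP than in IgG RIP numbered 6 by DESeq2, where 356 of all 12053 genes were. A stricter filter (mean of at least 10 CPM, which kept 30 of the 34 genes) also gave 6, where 411 of 9464 genes were. There were 5 without composition factors (417 of all genes) and 1 with only the groups compared (38 of all). On FPKM with a pseudocount of 1 or 0.1 or centred there were 0 (8, 35 and 8 of all). Leaving out 1 library gave 0 to 16. Genes lower in it numbered 1 with the stricter filter and 0 to 2 with a library left out. Over input, genes higher in IGF2BP1 RIP numbered 1 by DESeq2 and with the stricter filter, 10 with only the groups compared and by limma with group weights (chosen after seeing the data), 15 and 14 on FPKM with pseudocounts of 1 and 0.1, and 0 to 10 with a library left out. Genes lower numbered 5 with only the groups compared and with group weights, 0 on FPKM with either pseudocount or centred, and 0 to 5 with a library left out. For IgG RIP over input, genes higher numbered 0 by DESeq2, with no filter, with only the groups compared, on centred FPKM and with group weights, 11 and 10 on FPKM with pseudocounts of 1 and 0.1, and 0 to 3 with a library left out. Genes lower numbered 1 with only the groups compared and on FPKM with either pseudocount, 2 with group weights, 0 on centred FPKM, and 0 to 12 with a library left out. With the replicate block, 2 genes were higher and 0 lower over IgG RIP, where 253 and 342 of all 12053 genes were. The block gave 0 and 1 over input (179 and 366 of all), and 0 and 3 for IgG RIP over input (369 and 454 of all). Pdhb over IgG RIP then had an adjusted p of 0.0595. The replicate numbers share only a number. Of all 12053 genes, FPKM with pseudocounts of 1 and 0.1 called 2995 and 2531 higher and 54 and 52 lower for IGF2BP1 RIP over input. For IgG RIP over input they called 2558 and 2268 higher and 137 and 142 lower. Their medians over all genes were 0.68 and 0.81 for IGF2BP1 RIP over input, and 0.56 and 0.64 for IgG RIP over input. The stricter filter called 302 of 9464 genes higher over input and 588 lower over IgG RIP.

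On uncentred FPKM, which rise with depth, Dld turned to 0.79 and 0.82 for IGF2BP1 RIP over input at pseudocounts of 1 and 0.1. Fh1 turned to 0.84 and 0.86, and Mdh1 to 1.38 and 1.45, for IgG RIP over input. Among differences that did not pass, 48 changed sign under at least 1 alternative. Of the genes that passed, Suclg1 over IgG RIP passed in 13 of 18 alternatives, Mdh2 in 10, Pdhb in 9 and Mpc2 over input in 11, with the sign kept throughout. A group left with 1 library was assumed to vary like the others. Counts this low (under 25 fragments in some library for 5 genes) and 2 libraries a group limit what could be detected.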
